A study of Mus musculus with 27 samples.

Results

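The 10 genes described here encode the replicative helicase of mouse cells, the MCM2-7 ring (Mcm2, Mcm3, Mcm4, Mcm5, Mcm6 and Mcm7) and its GINS partner (Gins1, Gins2, Gins3 and Gins4). They were chosen by name, 6 MCM2-7 genes and 4 GINS genes among the 23382 gene symbols of the RNA-seq tables, and all 10 had a mean level of at least 1 TPM (a transcript abundance corrected for length and scaled to a common total). The material was B220+ cells, B220 being a surface form of CD45 on B cells, from the VavP-Bcl2 mouse model, which carries a Bcl2 transgene that protects blood cells from apoptosis. Both groups carried that transgene. For RNA-seq and ChIP-seq the labels describe haematopoietic stem cells of VavPBcl2 fetal liver (E13.5) that were infected with empty vector or with MSCV-SHMT2, a retroviral vector for the mitochondrial serine hydroxymethyltransferase SHMT2, and transplanted into irradiated wild-type mice, whose tumours gave the B220+ spleen cells. The age at collection and the vector promoter are not given in the labels. The ERRBS labels name the model, the cells and the vector alone.

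RNA-seq covered 3 vector and 3 SHMT2 libraries, H3K4me3 ChIP-seq 2 and 3, H3K4me1 ChIP-seq 2 and 2, and ERRBS (enhanced reduced representation bisulfite sequencing, which reads CpG methylation) 3 and 3. Whether replicates were separate animals is not said in the labels, and the p-values therefore cover the spread among these libraries alone, which may be technical. Shmt2 was measured at 174, 223 and 157 TPM in the vector libraries and at 244, 345 and 259 TPM in the SHMT2 libraries, with no overlap. B-cell markers (none of 10 at 0) summed to 6647 to 9243 TPM in the vector and 9029 to 9252 TPM in the SHMT2 libraries. A pair of vector libraries stood apart. Erythroid markers (14 genes, Tfrc, Slc4a1 and Gata1 highest) summed to 6736 TPM in vector replicate 2 and 1368 TPM in vector replicate 3, against 178.6 to 329 TPM in the other libraries, and myeloid and macrophage markers (13 genes) to 855 TPM in both, against 178.5 to 316 TPM. Values below are from all libraries unless a library is named as left out. The part of these libraries in the results was not tested, and in such bulk samples fewer cells of a type and less RNA per cell cannot be told apart.

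Before DNA is copied, the MCM2-7 ring is loaded around double-stranded DNA in G1 phase by the origin recognition complex with CDC6 and CDT1. In S phase the kinase DBF4-CDC7 and cyclin-dependent kinases switch the ring on, and it joins CDC45 and GINS to form CMG, the helicase that unwinds DNA ahead of the polymerases. The genes of this machinery are textbook targets of the E2F transcription factors, and their transcripts are typically high in dividing cells.

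In the RefSeq annotation of GRCm38.p6 the ring genes are Mcm2 (chr6:88883474-88898780), Mcm3 (chr1:20802966-20820312), Mcm4 (chr16:15623897-15637400), Mcm5 (chr8:75109468-75128439), Mcm6 (chr1:128331575-128359705) and Mcm7 (chr5:138164583-138172111). The GINS genes are Gins1 (chr2:150909556-150931280), Gins2 (chr8:120581266-120589075), Gins3 (chr8:95633559-95645059) and Gins4 (chr8:23226610-23237668). Mcm3 and Mcm6 share chromosome 1, and Mcm5, Gins2, Gins3 and Gins4 share chromosome 8.

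RefSeq promoters, 250 bases before to 50 after a start site (GRCm38.p6, the build also called mm10), were held for 6 of the 10 members: Mcm2, Mcm3, Mcm5, Mcm6, Mcm7 and Gins3. The letters TTTNNCGC, an E2F-like motif searched on both strands, stood in a promoter of 5 of these 6, Mcm2 being the one without. Of 32851 promoters of the same length 5.17% held it. The motif contains a CpG, and the members' promoters held 8 to 26 CpG against a median of 7 over all promoters. Mcm7, with a pair of promoters, counted if either matched, while the share is per promoter. CCAAT, the box bound by NF-Y, stood in 6 of 6, against 37.4%. The promoters of Mcm5, Mcm6, Mcm3, Gins3 and Mcm2 are shown because they carry these motifs in different arrangements. The sequences run 5′ to 3′ on the gene's strand, the start site is base 251, and capitals mark TTTNNCGC and CCAAT on either strand, runs of capitals longer than a motif being overlapping matches.

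Mcm5, chr8:75109259-75109558, plus strand: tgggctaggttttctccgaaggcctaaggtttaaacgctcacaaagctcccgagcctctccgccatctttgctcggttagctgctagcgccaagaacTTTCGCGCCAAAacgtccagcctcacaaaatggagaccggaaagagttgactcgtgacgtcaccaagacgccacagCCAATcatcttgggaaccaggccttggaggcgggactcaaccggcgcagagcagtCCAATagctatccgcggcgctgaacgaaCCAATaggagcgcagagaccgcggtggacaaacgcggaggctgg
Mcm6, chr1:128359656-128359955, minus strand: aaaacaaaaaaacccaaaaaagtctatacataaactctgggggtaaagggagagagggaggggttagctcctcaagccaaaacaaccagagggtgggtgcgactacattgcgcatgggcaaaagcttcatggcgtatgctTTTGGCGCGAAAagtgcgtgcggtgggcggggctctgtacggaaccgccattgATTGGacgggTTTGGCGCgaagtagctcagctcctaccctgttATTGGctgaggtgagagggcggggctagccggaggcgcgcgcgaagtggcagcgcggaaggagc
Mcm3, chr1:20820263-20820562, minus strand: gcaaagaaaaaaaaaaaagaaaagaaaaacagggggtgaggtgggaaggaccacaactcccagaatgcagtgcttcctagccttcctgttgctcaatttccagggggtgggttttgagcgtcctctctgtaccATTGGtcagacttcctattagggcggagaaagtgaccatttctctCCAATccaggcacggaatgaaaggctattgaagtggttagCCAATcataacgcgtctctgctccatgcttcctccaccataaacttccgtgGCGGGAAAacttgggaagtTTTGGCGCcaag
Gins3, chr8:95633309-95633608, plus strand: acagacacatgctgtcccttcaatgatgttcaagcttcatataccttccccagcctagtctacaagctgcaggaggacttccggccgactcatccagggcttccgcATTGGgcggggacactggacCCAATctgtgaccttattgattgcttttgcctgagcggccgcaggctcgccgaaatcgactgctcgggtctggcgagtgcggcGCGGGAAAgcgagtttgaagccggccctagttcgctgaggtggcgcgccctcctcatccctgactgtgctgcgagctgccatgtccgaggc
Mcm2, chr6:88898731-88899030, minus strand: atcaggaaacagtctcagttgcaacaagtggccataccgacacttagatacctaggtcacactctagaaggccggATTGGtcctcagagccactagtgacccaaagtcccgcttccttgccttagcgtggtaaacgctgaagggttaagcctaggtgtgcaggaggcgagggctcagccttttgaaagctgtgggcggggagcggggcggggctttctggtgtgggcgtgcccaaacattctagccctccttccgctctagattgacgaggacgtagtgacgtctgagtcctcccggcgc

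In Mcm5 and Mcm6 the E2F-like letters formed a pair of overlapping matches on opposite strands, beginning 153 bases (Mcm5) and 110 bases (Mcm6) before the start, and Mcm6 held another match 47 bases before it. In Mcm3 both matches lay after the start, at bases 20 and 39. Gins3 held its match on the minus strand 41 bases before the start, and Mcm7, which has a pair of start sites in RefSeq, held both of its matches in the promoter of the upstream one. A match is a description of letters and says nothing of binding. The GC box GGGCGG stood in 5 of 6 (35.7% of all promoters) and the CHR-like letters TTTGAA in 2 of 6, Mcm2 and Gins3 (17.9%).

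The MCM2-7 genes differed far more from one another than between groups. Mcm3, whose product binds the origin recognition complex and CDC6 during loading, was the highest, at 259, 262 and 161 TPM in vector replicates 1, 2 and 3 and 261, 279 and 285 TPM in SHMT2 replicates 1, 2 and 3. Mcm6, which contacts CDT1, followed at 168, 121 and 86.7 TPM against 149, 164 and 167 TPM. Together these genes made up 78.1% to 81.5% of the summed MCM2-7 TPM in every library. In each library Mcm3 was 13.6 to 16.6 times the level of Mcm7, the lowest of the ring, although the ring holds its subunits in equal number.

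Mcm2, which also binds histones H3 and H4, was at 32.3, 38.6 and 23.3 TPM in the vector libraries and 32.1, 35.3 and 32.5 TPM in the SHMT2 libraries. Mcm5, which with Mcm2 forms the gate through which DNA enters the ring, was at 31.1, 28.5 and 15.1 TPM against 34.2, 34.5 and 34.3 TPM. Here every SHMT2 library lay above every vector library. Mcm4, a main target of DBF4-CDC7, was at 17.9, 21.1 and 12.2 TPM against 17.8, 19.1 and 19.7 TPM. Mcm7, whose gene span holds the miRNA hairpins Mir25, Mir93 and Mir106b, was at 15.5, 19.3 and 11.8 TPM against 17.2, 18.2 and 18.1 TPM. For Mcm2, Mcm4 and Mcm7 vector replicate 3 was lowest, vector replicate 2 was highest, and the groups overlapped.

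Of the GINS genes, Gins4 (SLD5) was the highest, at 19.0, 27.3 and 22.5 TPM in the vector libraries and 26.3, 28.0 and 27.9 TPM in the SHMT2 libraries. Gins3 (PSF3) was at 10.5, 12.7 and 9.90 TPM against 9.30, 12.6 and 13.1 TPM. Gins1 (PSF1) was at 7.75, 8.15 and 5.31 TPM against 7.09, 7.09 and 6.53 TPM. Gins2 (PSF2) was the lowest, at 4.23, 4.79 and 1.95 TPM against 5.90, 5.76 and 5.95 TPM, with every SHMT2 library above every vector library. In all 6 libraries the order of levels ran from Mcm3 and Mcm6 at the top to Mcm4, Mcm7, Gins3, Gins1 and Gins2 at the bottom. The middle ranks of Mcm2, Mcm5 and Gins4 changed places between libraries. Only 2 neighbours in that order had ranges that did not overlap, Mcm6 above Mcm2 and Gins3 above Gins1.

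**Figure D1:**
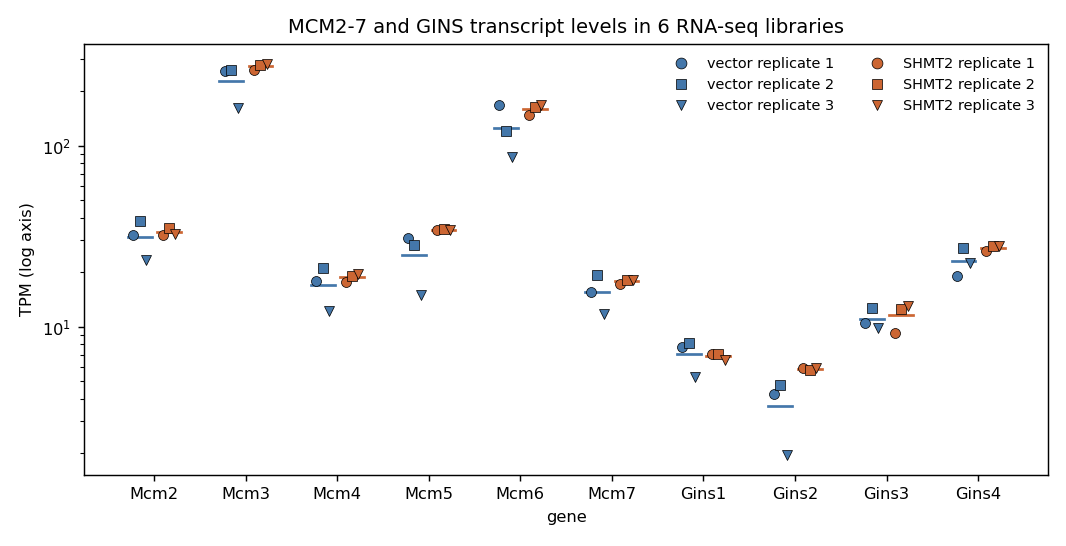
TPM of each member (log axis) in 3 vector (blue) and 3 SHMT2 (orange) libraries, markers showing the replicate and bars the group mean. Vector replicate 3, the blue triangle, is the lowest library for 8 of the 10 genes, and the groups are apart for Mcm5 and Gins2 alone.

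No member passed the test between the groups. In limma, with Benjamini-Hochberg adjustment over 11117 genes, 0 of 10 members and 0 genes in all (0%) had an adjusted p under 0.05. At an unadjusted p under 0.05 there were 0 members, against 1258 genes higher (11.3%) and 600 lower (5.4%) in the SHMT2 libraries. The mean was higher in SHMT2 for 9 of 10 members, against 53.2% of all genes, with a median log2 fold change of 0.24 against 0.02 over all genes tested. Mcm5 and Gins2, the 2 members whose groups did not overlap, were higher in SHMT2, a direction in which 16.9% of all genes were apart. No member was apart in the other direction (8.26% of all genes).

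Gins2 differed most in size, at 3.66 ± 1.501 TPM with vector and 5.87 ± 0.10 TPM in SHMT2 (mean ± SD, n = 3 each), with a log2 fold change of 0.62 (SE 0.26, limma adjusted p = 0.313), and of 0.32 without vector replicate 3. Its exact permutation p was 0.1, the smallest that 3 against 3 allows. Mcm5 stood at 24.9 ± 8.58 against 34.4 ± 0.17 TPM (SD, n = 3 each), a log2 fold change of 0.51 (SE 0.26, limma adjusted p = 0.375), also with an exact permutation p of 0.1. The log2 fold change of Mcm5 was 0.20 without vector replicate 3. The log2 fold changes of Mcm6, Mcm3, Gins4 and Mcm7 were 0.40 (SE 0.23), 0.31 (SE 0.20), 0.26 (SE 0.14) and 0.21 (SE 0.17). Without vector replicate 3 they were 0.16, 0.08, 0.25 and 0.04 in the same order, so that of these genes Gins4 alone kept about the same size. Gins4 in turn fell to 0.14 without vector replicate 1, its lowest library. Those of Mcm4, Mcm2, Gins3 and Gins1 were 0.17 (SE 0.20), 0.11 (SE 0.18), 0.07 (SE 0.16) and -0.01 (SE 0.16), and without vector replicate 3 they were -0.04, -0.08, -0.0013 and -0.18. The limma adjusted p-values of these 8 members ran from 0.389 to 0.977. The 95% interval for Gins1 ran from -0.41 to 0.39 and that for Mcm3 from -0.18 to 0.79 on the log2 scale, so changes of those sizes lie within the error.

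The vector group was the more variable one. The SD of log2(TPM + 1) was larger in vector than in SHMT2 for 9 of 10 members (79.0% of all genes), Gins3 being the exception, and the median SD was 0.37 in vector and 0.06 in SHMT2, against 0.21 and 0.11 over all genes. Vector replicate 3 was the lowest of the 6 libraries for 8 of 10 members, against 19.3% of all genes. The exceptions were Gins3, lowest in SHMT2 replicate 1, and Gins4, lowest in vector replicate 1. In vector replicate 3 the median MCM2-7 gene stood 0.68 below its SHMT2 mean on the log2 scale (value -0.68), against -0.08 in vector replicate 1 and 0.02 in vector replicate 2.

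Without vector replicate 3, the mean was higher in SHMT2 for 6 of 10 members (6119 of all 11117 genes) and the median log2 fold change fell to 0.06. There 1 member, Gins2, had an unadjusted p under 0.05 (10.2% of all genes higher at that threshold). Without vector replicate 2, all 10 members had the higher mean in SHMT2 (6058 of all 11117 genes) and the median was 0.38. Mcm7, Gins2 and Gins4 then passed the unadjusted threshold (11.2%). Without vector replicate 1 the SHMT2 mean was higher for all 10 (5774 of all 11117 genes), with a median of 0.22. Here 3 members, Mcm5, Mcm6 and Gins2, passed that threshold (15.8%). In that fit 845 genes (7.6%) had a limma adjusted p under 0.05 and no member did, the smallest adjusted p being 0.0698 for Mcm6. Without both vector replicates 2 and 3 the median was 0.11, and Gins2 (log2 fold change 0.39) and Gins4 (0.50) passed the unadjusted threshold, against 11.8% of all genes. No member had an adjusted p under 0.05 in that fit (0.054% of all genes). When the level of erythroid and myeloid markers entered the fit as a term, Gins4 alone passed it (0.46, against 9.36%), and 0 members had an adjusted p under 0.05 (0.009% of all genes).

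The likeness of the ring genes across libraries was smaller once vector replicate 3 was left out. Over the 6 libraries, which share both groups, the 15 pairs of MCM2-7 genes had a median Pearson r of 0.91 (0.65 to 0.98). Over the 5 libraries without vector replicate 3 the median r was 0.29, from -0.77 to 0.85. The 6 GINS pairs had a median r of 0.50 over 6 libraries and 0.01 over 5. Genes outside every list were also ranked by their r, over the 6 libraries, with the mean of the members' standardized levels. The highest were Kif23 (r = 0.999), Exo1 (0.996), Kif20a (0.994), Spc24 (0.993) and Tubb5 (0.993). Kif23 and Kif20a are mitotic kinesins, Exo1 an exonuclease, Spc24 a kinetochore subunit and Tubb5 a tubulin. Without vector replicate 3 their r with the members' mean was 0.91 to 0.99, over 5 libraries. These genes were picked for the highest r in these same libraries, so a high r follows from the choice. An r with a mean of several genes also cannot be set against the r of single pairs above.

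Other replication and cell-cycle genes were read from 8 pathway lists, 97 of whose 100 genes passed the filter on low values. These lists include 22 G1/S regulators and 16 mitosis genes, so the pooled counts are not of replication genes alone. None had a limma adjusted p under 0.05 with all libraries. At an unadjusted p under 0.05, 11 were higher and 2 lower in SHMT2, beside 11.3% and 5.4% of all genes. The mean was higher for 61 of the 97 (53.2% of all genes). On leaving out vector replicate 3 it was higher for 43 of 97, with 10 higher and 3 lower at that threshold (10.2% and 3.97% of all genes). Without vector replicate 2 it was higher for 81, with 25 higher and 1 lower (11.2% and 5.69%), and without both for 70, with 15 higher and 3 lower (11.8% and 6.51%). Without vector replicate 1 it was higher for 58, with 17 higher and 6 lower (15.8% and 14.3%). There 6 higher and 2 lower had a limma adjusted p under 0.05, beside 431 higher and 414 lower of all 11117 genes. Of all 11117 genes the mean was higher for 5774, 6058 and 6119 without vector replicate 1, 2 or 3. It was higher for 6705 of them without both vector replicates 2 and 3.

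Among the licensing factors that load the ring, 7 of 11 had the higher mean in SHMT2, with a median log2 fold change of 0.03, and 1 was lower at an unadjusted p under 0.05. That gene was Cdt1, which brings MCM2-7 to origins, at 53.8, 67.6 and 53.9 TPM with vector against 48.6, 39.3 and 41.7 TPM in SHMT2. Every SHMT2 library lay below every vector library (8.26% of all genes), with a log2 fold change of -0.42 (SE 0.13, limma adjusted p = 0.219). Cdc6, its partner in loading, was at 3.39, 7.86 and 1.93 TPM against 2.73, 3.22 and 3.09 TPM, the highest value in vector replicate 2. Lrwd1, which binds the origin recognition complex, and Orc4, a subunit of it, had log2 fold changes of 0.25 and 0.26. The list's median was -0.02, 0.14 and 0.04 without vector replicate 1, 2 or 3, and without both vector replicates 2 and 3 Cdt1 stood at -0.32 and no longer passed the unadjusted threshold.

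Of the 12 measured genes that switch the helicase on or travel with the fork, 9 had the higher mean in SHMT2, with a median log2 fold change of 0.07 and none at an unadjusted p under 0.05. Without vector replicate 3 these were 6 of 12 and -0.0041, and Wdhd1 was lower at that threshold. Cdc45, the third part of CMG, was at 5.76, 7.91 and 3.78 TPM with vector and 7.39, 7.45 and 7.30 TPM in SHMT2, lowest in vector replicate 3 like the ring genes (log2 fold change 0.34, SE 0.23, and 0.11 without vector replicate 3). Cdc7, the kinase that phosphorylates the ring, had a log2 fold change of 0.24, and Wdhd1, which links helicase to polymerase alpha, one of -0.30. Mcm8, a ring gene outside the replicative helicase, was higher in every SHMT2 library (log2 fold change 0.20), as were 16.9% of all genes. Mcm9 was not (-0.04, and 0.04 without vector replicate 3).

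The polymerase subunits and the clamp genes held most of the genes at the unadjusted threshold. Of 12 polymerase genes 5 were higher and 0 lower (11.3% and 5.4% of all genes), with a median log2 fold change of 0.19. The median was 0.10 without vector replicate 3, with 4 higher (10.2% of all genes). Pold1, the catalytic subunit of polymerase delta, was at 99.4, 104.6 and 75.9 TPM in vector against 144, 127 and 129 TPM in SHMT2 (log2 fold change 0.52, SE 0.14, limma adjusted p = 0.206). Pold4 (0.53) and Pole4 (0.31), small subunits of polymerases delta and epsilon, were also apart between groups, as were 16.9% of all genes in that direction. Of 15 clamp, clamp-loader, single-strand binding and ligation genes 4 were higher and 0 lower (11.3% and 5.4% of all genes), with a median of 0.25. Without vector replicate 3 the median was 0.16, with 3 higher (10.2% of all genes). Rfc4 (0.49) and Rfc5 (0.40) of the clamp loader and Rpa3 (0.42) of the single-strand binding complex did not overlap between groups (16.9% of all genes). Pcna, the clamp, was at 50.01, 47.8 and 39.2 TPM against 56.4, 43.8 and 49.98 TPM (0.13, and 0.03 without vector replicate 3). Without both vector replicates 2 and 3, Pole4 (0.21) and Rfc5 (0.28) no longer passed the unadjusted threshold, and Pold4 stood at 0.24.

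Several nucleotide supply and cell-cycle genes had their extreme values in vector replicates 2 and 3. Of 7 measured nucleotide supply genes none passed the unadjusted threshold, and the median log2 fold change was 0.14 with all libraries and -0.04 without vector replicate 3. Rrm2, a ribonucleotide reductase subunit, was at 58.8 TPM in vector replicate 2 and at 11.96 to 14.4 TPM in the other 5 libraries. Dut, which makes the precursor of thymidylate, had a log2 fold change of 0.40, and of 0.17 without vector replicate 3. Of 22 G1/S regulators 7 had the higher mean, with a median of -0.10. Leaving out vector replicate 2 gave a median of 0.12, and leaving out vector replicate 3 one of -0.22. Cdk4 (0.44) and E2f5 (0.45) were higher and Cdk2 (-0.26) lower at an unadjusted p under 0.05 (11.3% and 5.4% of all genes). Cdk2 (-0.20) missed that threshold without vector replicate 2. E2f1, which drives replication genes, was at 5.10, 5.21 and 3.11 TPM against 5.02, 5.60 and 5.64 TPM. Of 16 mitosis genes 15 were lowest in vector replicate 3, and none passed the unadjusted threshold. The mean was higher in SHMT2 for 11 of the 16, for 16 without vector replicate 2 and for 3 without vector replicate 3. Mki67, a proliferation marker, was at 304, 850 and 213 TPM with vector and 293, 325 and 298 TPM in SHMT2. Top2a, Bub1 and Bub1b had log2 fold changes of 0.54, 0.56 and 0.15, and of 0.13, 0.20 and 0.10 without vector replicate 3.

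**Figure D2:**
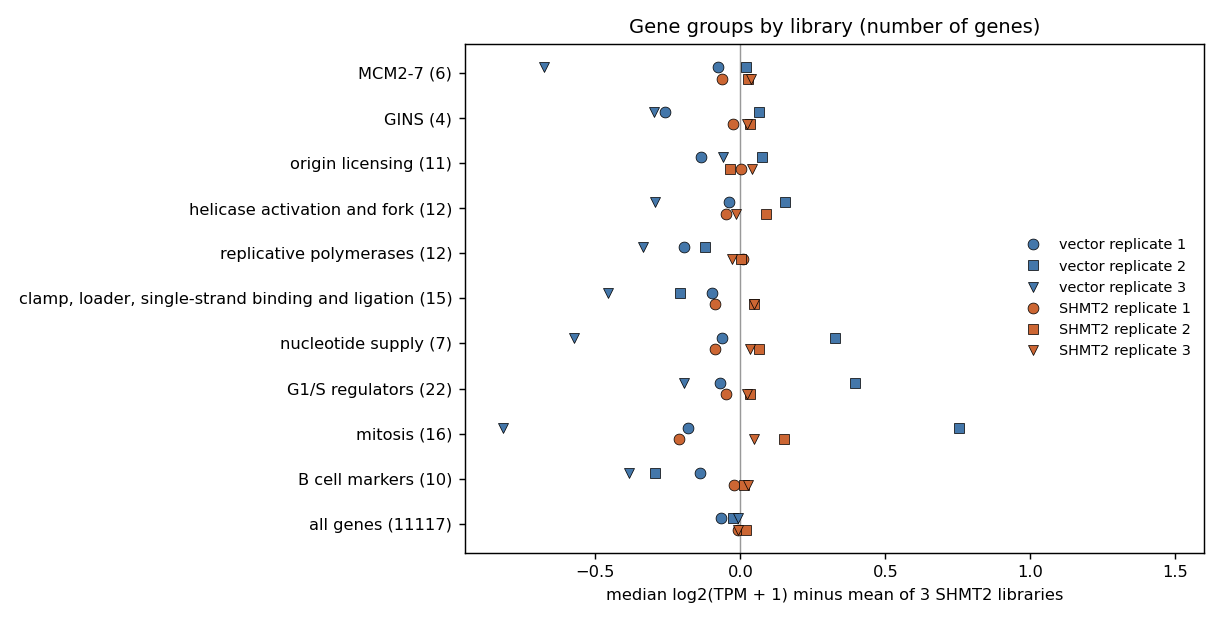
Median over the genes of each group of log2(TPM + 1) minus the mean of the 3 SHMT2 libraries, by library (blue vector, orange SHMT2, markers by replicate), with the number of genes in brackets. MCM2-7 stands at -0.68 in vector replicate 3 and mitosis at -0.82 there and 0.75 in vector replicate 2, while all genes stay near 0.

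At the chromatin level all 10 members carried H3K4me3, the mark of active promoters, within 1 kb of a single gene end in all 5 libraries. Of 21631 protein-coding genes 53.3% had the mark in all 5 at either or both ends, and 10480 genes at 1 end alone. With a −log10 q of at least 5 all 10 members kept the mark (52.7% of genes, either or both ends). With an overlap of at least 500 bases 9 did, without Mcm3 (44.5%), and with a peak over the end base itself 8, without Mcm6 and Gins4 (30.5%). That end was the RefSeq start for the 6 members with a promoter in RefSeq. The peaks lay high in their lists: by the authors' fold enrichment, the top peak of each member stood between the 66.6th (Mcm6) and the 99.6th (Mcm4) percentile of its own library's list. Those lists hold peaks at gene ends and elsewhere, and the marked ends of other genes were not ranked beside the members. Mcm4 had the widest spread of fold, 35.6 to 67.3, and Mcm5 was at 42.4 to 56.2. The promoters of Mcm5 and Mcm7 shown or described above lay wholly inside H3K4me3 peaks in 5 of 5 libraries, that of Gins3 in 4, those of Mcm6 and Mcm2 in 3 and that of Mcm3 in 2, with some of the window covered in all 5.

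At Mcm6 the summed length of the H3K4me3 peaks within 1 kb of the end was 1860 and 1843 bases in the vector libraries and 3096, 2847 and 2178 bases in the SHMT2 libraries. At Mcm3 it was 921 and 1127 bases against 1588, 1430 and 1281 bases. In all, 5 of 10 members had more H3K4me3 length in every SHMT2 library than in every vector library, against 31.7% of 10480 genes, and none had less (1.04%). The SHMT2 lists also held more peaks, 34458 to 38249 against 33313 and 33806. By summed peak length, SHMT2 replicate 6 (27437230 bases) lay just below vector replicate 6 (27459402 bases).

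H3K4me1, a mark of enhancers and promoter flanks, was called at 9 of 10 members in all 4 libraries, against 54.6% of 21631 genes. Mcm3 was the exception, with no peak in vector replicate 5. With a −log10 q of at least 5 that count was 1, Mcm5 (5.64% of genes), and with an overlap of at least 500 bases 3, Mcm6, Mcm7 and Gins3 (45.6%). With no margin around the gene it was 8 (51.1%). No member had peaks in both SHMT2 libraries and in neither vector library, a pattern of 4.48% of genes. Near the marked end of Mcm5, Gins3 and Gins4 the H3K4me1 peaks began 242 to 593 bases inside the gene. At Mcm7 they lay inside the gene in all 4 libraries and also outside it in both SHMT2 libraries, and at Mcm4 they lay on both sides of the end in all 4. Gins1 also held an H3K4me1 and an H3K4me3 peak about 5 to 6 kb inside the gene. At Gins2 the H3K4me1 length was 496 and 426 bases in vector and 1950 and 1859 bases in SHMT2, the peak running across the marked end in the SHMT2 libraries alone. At Mcm5 it was 1171 and 413 against 2289 and 2199 bases, and at Mcm6 2193 and 1784 against 4019 and 2928 bases. Both SHMT2 libraries exceeded both vector libraries for 7 of 9 members, against 84.1% of 11809 genes, so the members were not above the share of all genes. The SHMT2 lists held 48993 and 52056 peaks and the vector lists 33119 and 37274, and whether sequencing depth differed is unknown.

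**Figure D3:**
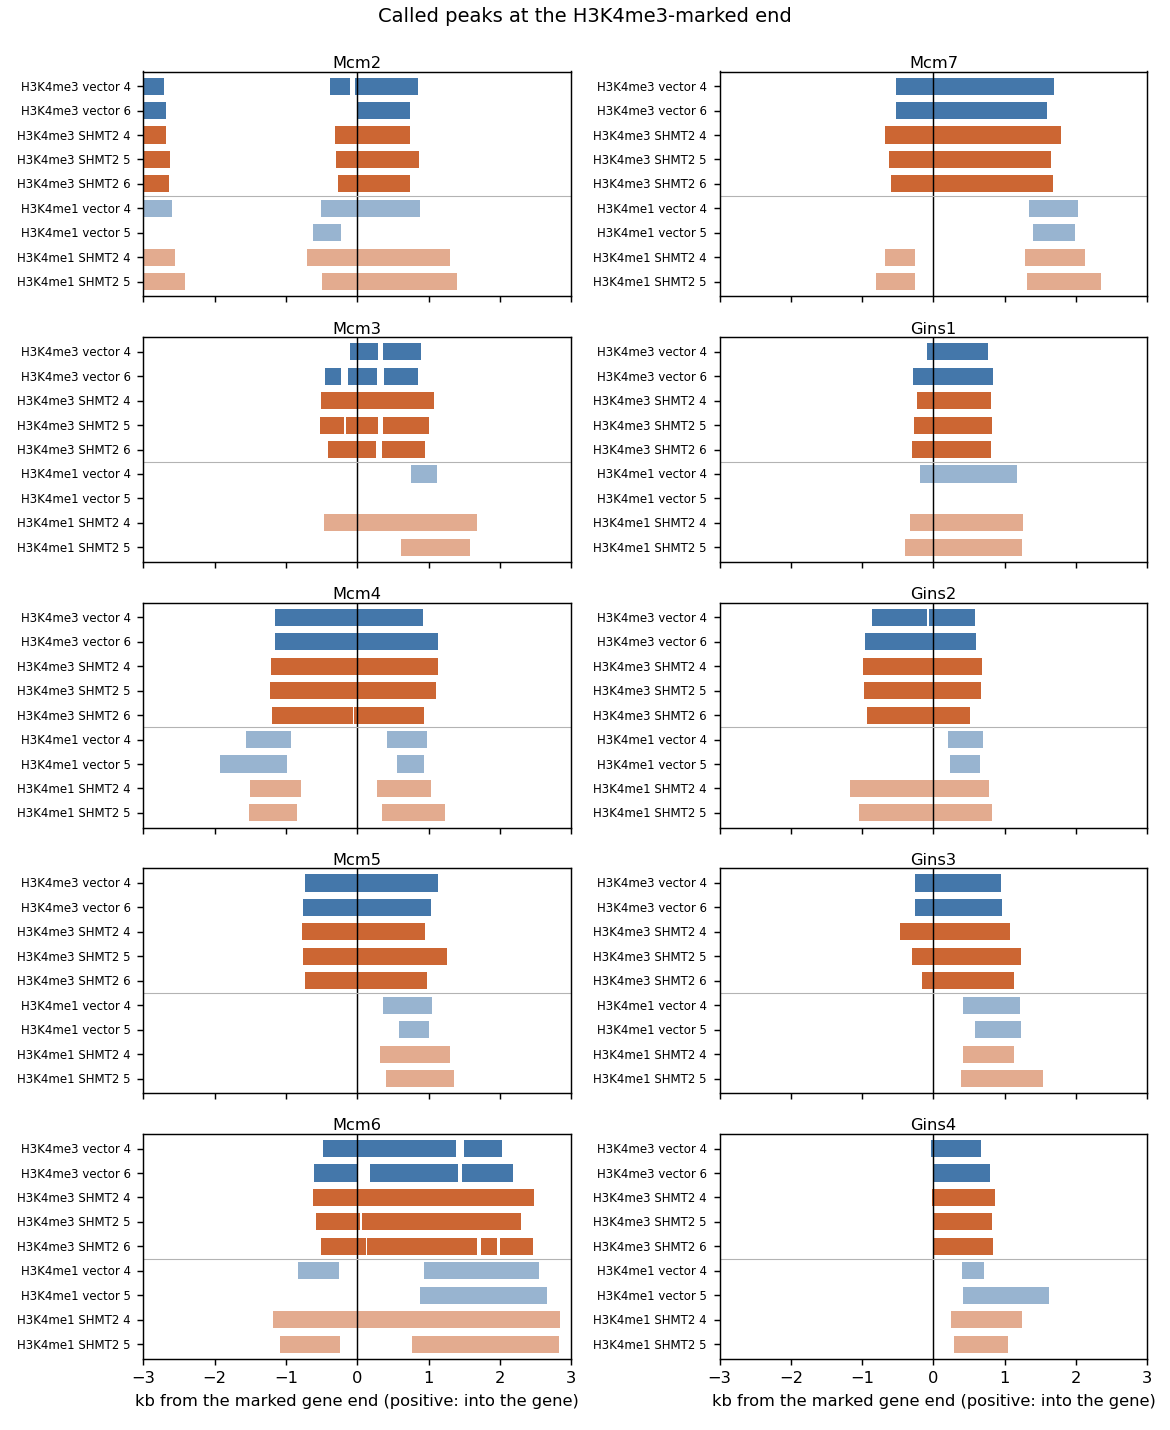
Called H3K4me3 (solid) and H3K4me1 (pale) peaks within 3 kb of the H3K4me3-marked end of each member, 1 row per library, blue for vector and orange for SHMT2, with distance in kb and positive values inside the gene. Every member has H3K4me3 at the marked end in all 5 libraries, and Mcm3 has no H3K4me1 peak in vector replicate 5.

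CpG methylation at the marked ends was close to 0. Within 1 kb of that end, 12 to 72 cytosines were read with coverage of at least 10 in all 6 ERRBS libraries, 546 to 5406 calls per library, and the mean level of the members was 0.110% to 0.398% with a median of 0.311%. Over all 9310 marked ends the median was 0.339%, and 69.8% were under 1%. Opposite gene ends, where measured, stood at 82.5% (Mcm3), 83.3% (Mcm7), 83.6% (Gins2) and 96.1% (Gins4), against a median of 90.4% over 1708 such ends.

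Differences between groups at the marked ends ran from -0.22 to 0.56 percentage points, 5 higher and 5 lower in SHMT2. In the quasi-binomial test 0 of 16191 ends (0%) had an adjusted p under 0.05, and 313 (1.93%) were higher and 286 (1.77%) lower at an unadjusted p under 0.05. Gins1 and Mcm6 were the members at that threshold, both higher in SHMT2. On leaving out 1 library at a time, Gins1 no longer passed it in 3 of 6 fits (without vector replicate 1, vector replicate 2 or SHMT2 replicate 3) and Mcm6 in 5 of 6 (all but that without SHMT2 replicate 3). The difference ran from 0.31 (without SHMT2 replicate 3) to 0.78 points for Gins1 and from 0.085 (without SHMT2 replicate 1) to 0.18 points for Mcm6. Gins1 was at 0%, 0% and 0.183% in vector and 0.554%, 0.180% and 1.13% in SHMT2, a difference of 0.56 points (adjusted p = 0.878, exact permutation p = 0.2). The zeros are 0 of 755 and 0 of 614 calls, which allow up to 0.397% and 0.489%, and the 1.13% rests on 10 methylated of 882 calls (95% Wilson interval 0.617% to 2.07%). Those methylated calls lay at nearby cytosines of 3.57% to 3.70% each, the rest being at 0%, so they may come from few reads. Mcm6 was at 0.108%, 0.0937% and 0.0954% against 0.354%, 0.202% and 0.166% (adjusted p = 0.878, exact permutation p = 0.1). Mcm5 and Mcm7 also had no overlap between groups, in the other direction, each with an exact permutation p of 0.1. How many of all gene ends were apart in this way was not counted, so this cannot be read as a trait of the members. Mcm5 was at 0.591%, 0.449% and 0.357% against 0.329%, 0.122% and 0.285%. Mcm7 was at 0.396%, 0.391% and 0.398% against 0.261%, 0.301% and 0.132%. Intervals and limits take calls as independent. PCR copies and neighbouring cytosines on the same read are not, so the true error may be larger.

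At the opposite end of Gins2, which overlaps the end of Gse1 by 118 bases, methylation stood at 84.6%, 75.7% and 80.9% with vector and at 87.2%, 93.8% and 79.7% in SHMT2 (quasi-binomial p = 0.139 unadjusted, adjusted p = 0.878). Inside the genes, over 2 kb from the marked end, cytosines were read for 6 of the 10 members, and none for Mcm5, Mcm6, Gins1 and Gins3. They averaged 94.0% to 95.6% at Mcm2 (19 cytosines) and 84.4% to 87.2% at Mcm7 (20 cytosines), by library. At Mcm4 8 cytosines were read, 6 of them at 69.2% to 100% and 2 at 0% to 11.1% over the libraries. The 2 low ones, at positions 15632230 and 15632279, lay directly beside cytosines at 92.5% to 100% and at 87.9% to 100%. Each such pair is the 2 strands of the same CpG. The cause of the low values, a technical one included, was not tested. At the 5 cytosines of the Mir25 hairpin in Mcm7 the level was 77.5% to 86.0%.

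**Figure D4:**
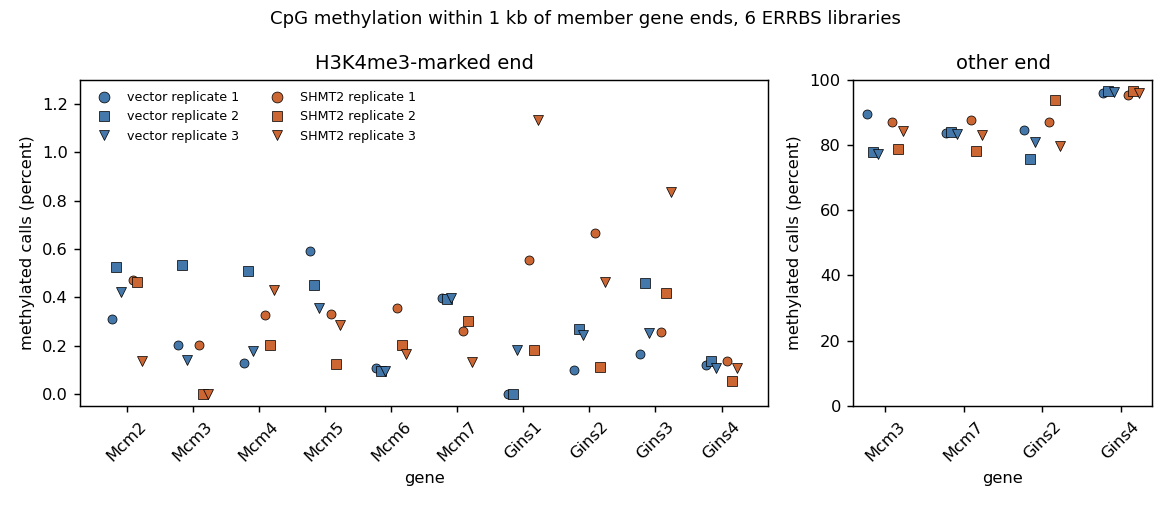
Percent of methylated calls within 1 kb of each member's H3K4me3-marked end (left, axis to 1.3%) and of its opposite end where measured (right, axis to 100%), 1 marker per ERRBS library, blue for vector and orange for SHMT2. Marked ends stay at or under 1.13% in all 6 libraries and the measured opposite ends at or above 75.7%.

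Several members share an end with another gene. The spans of Mcm4 and Prkdc, a DNA repair kinase, lie 43 bases apart, Mcm7 overlaps Ap4m1 by 91 bases and lies 598 bases from Cops6, and Gins2 overlaps Gse1. Whether the counting used strand is not stated here, so reads of overlapping genes cannot be told apart. Prkdc was at 99.5 ± 6.60 TPM with vector and 108.5 ± 3.62 TPM in SHMT2, and Ap4m1 at 6.88 ± 1.14 and 7.13 ± 0.22 TPM (SD, n = 3 each). In vector replicate 3 Prkdc was at 100.5 TPM, between the other vector libraries, and Ap4m1 at 5.57 TPM, its lowest level. Cops6 (log2 fold change 0.33) lay above and Gse1 (-0.29) below the vector libraries in every SHMT2 library, with limma adjusted p-values of 0.294 and 0.220.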

How the data were processed

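The deposited RNA-seq values are TPM, 1 table per library. The submitters' processing notes name STAR, BWA, MACS2, Bismark, Bowtie2 and mm10, with no tool for TPM among them, and TPM keep no depth. The deposited peak lists, called per library, give the authors' fold enrichment and −log10 q-value of each peak. Per the file headers, the deposited ERRBS tables hold coverage, which is the count of calls at a cytosine, and the percent read as C. They list 1330340 to 1424115 cytosines, with mean coverage between 63.0 and 71.6 and none below 10.

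Levels were tested on log2(TPM + 1), a scale that understates changes of low genes, for genes averaging 1 TPM or more, with limma 3.58.1 in R 4.3.3 (trend, two-sided). Single genes also had a two-sided exact permutation test. Methylated calls were recovered from percent and coverage, summed within 1 kb of gene ends with at least 3 cytosines, and tested by quasi-binomial regression with dispersion squeezed across ends by limma. Peaks were counted within 1 kb at an overlap of at least 1 base. Both tests were checked on simulated data, with planted changes far larger than the members' differences and, for methylation, at ends of far higher level. The check therefore does not cover differences of the members' size. Gene spans and promoters came from RefSeq (GRCm38.p6), where spans have no strand. ERRBS SHMT2 replicates 2 and 3 were grouped by title, since their transfection labels name SHMT3 and SHMT4.

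The members, lists and alternatives were chosen with earlier results of these data known. Named were all members, the 3 genes of each pathway list with the smallest p, Pcna, Cdc45, Cdt1, Cdc6, Mki67 and E2f1, genes sharing a member's end, and the 5 genes most like the members. Some genes that this rule names are not reported here. T-cell, NK-cell, plasma-cell and germinal-centre markers summed to 54.9 to 105.7, 91.1 to 204, 2104 to 4576 and 448 to 1669 TPM over the 6 libraries. Input libraries were not used here.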

Additional observations from a re-analysis of the deposited data

How the results depend on the processing

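Of 129 log2 fold changes of members under 13 alternatives, 121 kept their direction, and the adjusted p ran from 0.0698 to 0.998. Those of opposite sign were Mcm2 (-0.084), Mcm4 (-0.043) and Gins3 (-0.0013) without vector replicate 3, Mcm6 (-0.068) without both vector replicates 2 and 3, Gins1 (0.056, 0.088 and 0.023) without vector replicate 1, vector replicate 2 or SHMT2 replicate 3, and Gins3 (-0.018) without SHMT2 replicate 3. Leaving out 1 library gave log2 fold changes of -0.084 to 0.27 for Mcm2, -0.043 to 0.33 for Mcm4, -0.18 to 0.088 for Gins1 and -0.018 to 0.21 for Gins3. The count of genes past adjusted p 0.05 was 0 to 845 and that of members at an unadjusted p under 0.05 was 0 to 3 on leaving out 1 library. With the marker covariate these were 1 and 1, and without both vector replicates 2 and 3 they were 6 and 2. The cause was not tested.

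The labels do not say whether replicate numbers pair the samples, and the main fits held no replicate block. Same-numbered libraries deviated from their group means with r of -0.42, -0.33 and -0.06 in RNA-seq and -0.15, -0.38 and -0.06 in ERRBS. With so few libraries per group such values cannot settle whether the samples were paired. With the replicate block, 0 genes, 0 members at an unadjusted p under 0.05 and 0 gene ends were called, as without it.

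Of 100 marked-end differences under alternatives, 96 kept their direction. On leaving out 1 library, Mcm4 ran from -0.023 to 0.17, Gins4 from -0.041 to 0.00058 and Mcm2 from -0.12 to 0.050 points, and 0 ends were called in each. No member's marked end had a mean level between 5 and 95 percent, so that alternative gave no value for them. An H3K4me1 peak in every library was held by 9 members, by 1 at a −log10 q of at least 5, by 3 at an overlap of at least 500 bases, by 8 with no margin and by 9 to 10 on leaving out 1 library. An H3K4me3 peak in every library was held by 10 members, by 9 at that overlap, by 8 with no margin and by 10 at that −log10 q or on leaving out 1 library.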
